A study of Mus musculus with 20 samples.

Results

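Chemokines are small secreted proteins that direct the movement of leukocytes, and they act through receptors with 7 membrane spans on the cells they attract. The genes described here are the chemokine ligands and chemokine receptors of a mouse RNA-seq count table, chosen by symbol: Ccl, Cxcl or Cx3cl followed by a number for ligands, and Ccr, Cxcr or Cx3cr followed by a number for receptors. The rule took 37 ligands and 18 receptors, 55 of 33899 genes. RNA was measured in adipocyte precursor cells (APCs), the stromal cells from which fat cells form. They came from C57Bl6/J females aged 8 to 11 weeks, for which the labels name no altered allele, and the 4 groups hold 5 libraries each. VWAT HFD is perigonadal (visceral) white fat after 3 days on a high-fat diet with 60% lard, and VWAT SD is the same depot on standard diet (day 0). SWAT HFD and SWAT SD are inguinal (subcutaneous) white fat on the same diets. In every group, tissue of 3 mice was pooled for a library, and the cells were sorted as negative for CD45 and CD31 and positive for CD29, CD34 and Sca1, CD24-negative and CD24-positive cells included. A replicate is therefore a pool, and errors and p-values measure the spread between pools. RNA of sorted bulk cells cannot tell fewer cells of a type from less RNA per cell.

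Inflammatory chemokines are switched on by cytokines and microbial products through NF-kB and interferon signalling, and they recruit neutrophils, monocytes or activated lymphocytes. Homeostatic chemokines are made without such a stimulus and place lymphocytes and progenitors in tissues. Stromal cells of fat are a known source of both kinds, and monocyte recruitment through Ccl2 and its receptor Ccr2 has been studied widely in obese fat. Atypical receptors such as Cxcr7 (also named Ackr3) bind chemokines and remove them without the usual G protein signal.

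Reads on genes numbered 14367067 to 47483171 per library, and levels are given as CPM, read counts scaled to a common library size after TMM correction. The precursor markers Cd34 (1596 to 2389.6 CPM), Pdgfra (249.9 to 766 CPM) and Ly6a, which encodes Sca1 (961 to 2688 CPM), were present in all 20 libraries. Marker genes of the depots went against 2 labels. The library labelled VWAT SD 5 had 0.154 CPM of the visceral gene Wt1 and 47.7 CPM of the subcutaneous gene Tbx15, and the library labelled SWAT SD 5 had 80.3 and 0.358 CPM. Both keep their labels here, and the main results are given for all 20 libraries and for the 18 without these. Libraries also differed in a trend of counts with the GC content of genes. Its rank correlation across genes lay between -0.631 and -0.221 in VWAT HFD libraries and was -0.537 in VWAT SD 1, against 0.499 to 0.608 in the other 4 VWAT SD libraries. In SWAT it ran from -0.559 to 0.049 on HFD and from -0.158 to 0.617 on SD. The trend thus moved with diet, and values after its removal from the 18 libraries are given beside the main results. The transcripts of Cxcl1, Ccl2, Ccl7, Cxcl2, Cxcl9 and Cxcl10 had a GC content of 42.9% to 47.1%, against a median of 50.0% over 14045 tested genes.

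Of the 55 genes, 4 had no read in any library: Ccl26, Ccl27b, Ccl21c and the neutrophil receptor Cxcr2. Over all libraries, 0 reads allow a level of up to 0.00511 CPM (3 reads), a limit that covers counting error only. In all, 29 genes passed edgeR's expression filter and were tested, 24 ligands and 5 receptors. The other 26 (13 ligands and 13 receptors) reached at most 1.23 CPM in any library. Divided by the length of each gene's merged exons, the highest mean levels over the 20 libraries were those of Cxcl1 with 1047 CPM per kilobase (kb), Ccl2 with 692, Ccl7 with 482 and Ccl11 with 341. Behind these came the receptor Cxcr7 with 190, Cxcl2 with 104, Cxcl10 with 90.1, Cxcl14 with 73.3, Cxcl12 with 40.8 and Cxcl16 with 40.4 CPM per kb. The neutrophil attractant Cxcl1 and the monocyte attractants Ccl2 and Ccl7 thus led the family in these precursors. The 8 ligands of highest mean CPM (Cxcl1, Ccl2, Ccl7, Ccl11, Cxcl12, Cxcl2, Cxcl10 and Cxcl14) held 88.3% to 97.1% of all ligand CPM in each library. Summed ligand CPM ranged from 5738 to 8501 in VWAT HFD and from 1695 to 6543 in VWAT SD, and from 3302 to 5047 in SWAT HFD and from 2522 to 4355 in SWAT SD. The highest VWAT SD sum, that of VWAT SD 1, lay within the VWAT HFD range.

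**Figure D1:**
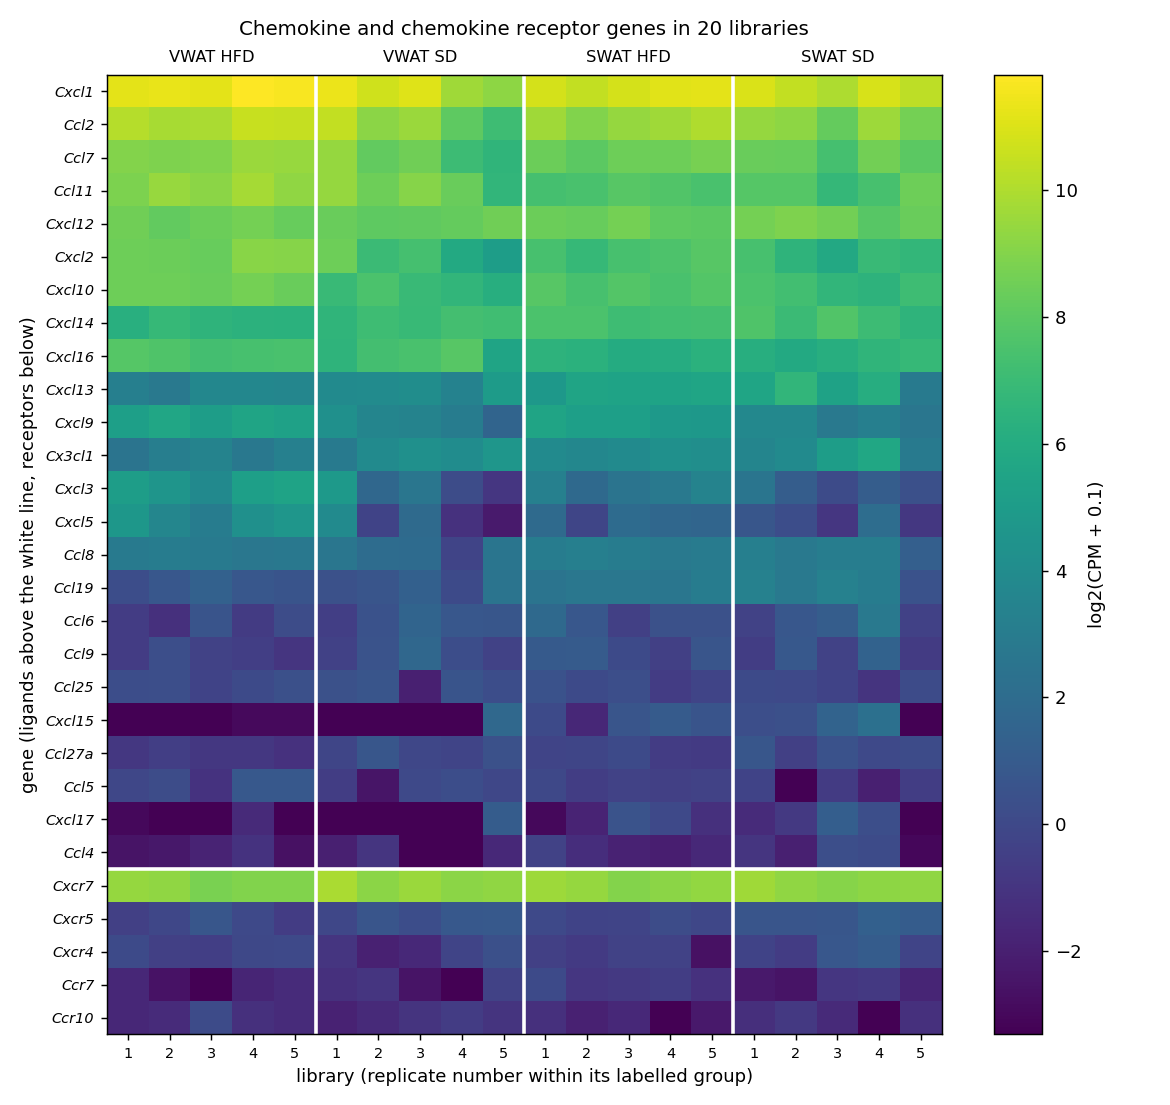
Level of the 29 tested chemokine and chemokine receptor genes in each of 20 libraries, as log2(CPM + 0.1) in colour, with genes in order of mean CPM and libraries grouped by label. Cxcr7 is the only receptor above 2.38 CPM, and the columns labelled VWAT SD 5 and SWAT SD 5 differ from their groups at Cxcl15, Cxcl17 and Ccl19.

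The first comparison asks what 3 days of HFD changed in visceral precursors. In VWAT, 6 ligands were higher and 4 were lower on HFD (edgeR's quasi-likelihood test, threshold of 0.05 after Benjamini-Hochberg adjustment over 14242 genes). The higher ones were the Cxcr3 ligands Cxcl9 and Cxcl10, the Cxcr2 ligands Cxcl1, Cxcl2 and Cxcl3, and the monocyte attractant Ccl7. The lower ones were Ccl27a, Cxcl14, Cx3cl1 and Cxcl15. Of all tested genes 19.7% were higher and 26% lower, so 6 and 4 of 29 are near or below the background of this comparison. With 18 libraries 4 were higher (Cxcl9, Cxcl10, Cxcl2 and Ccl8) and 2 lower (Cxcl14 and Ccl27a), against 13.8% and 22.7% of all genes. After the GC correction with 18 libraries 3 were higher (Cxcl9, Cxcl10 and Cxcl2) and 3 lower (Cxcl13, Ccl9 and Cxcr7), against 6.13% and 10.3% of all genes. Cxcl9, Cxcl10 and Cxcl2 were thus called higher in all 3 fits. The median log2 fold change of the 24 tested ligands was 0.26 with 20 libraries and 0.14 with 18 after the GC correction, against -0.03 and -0.01 over all tested genes.

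**Figure D2:**
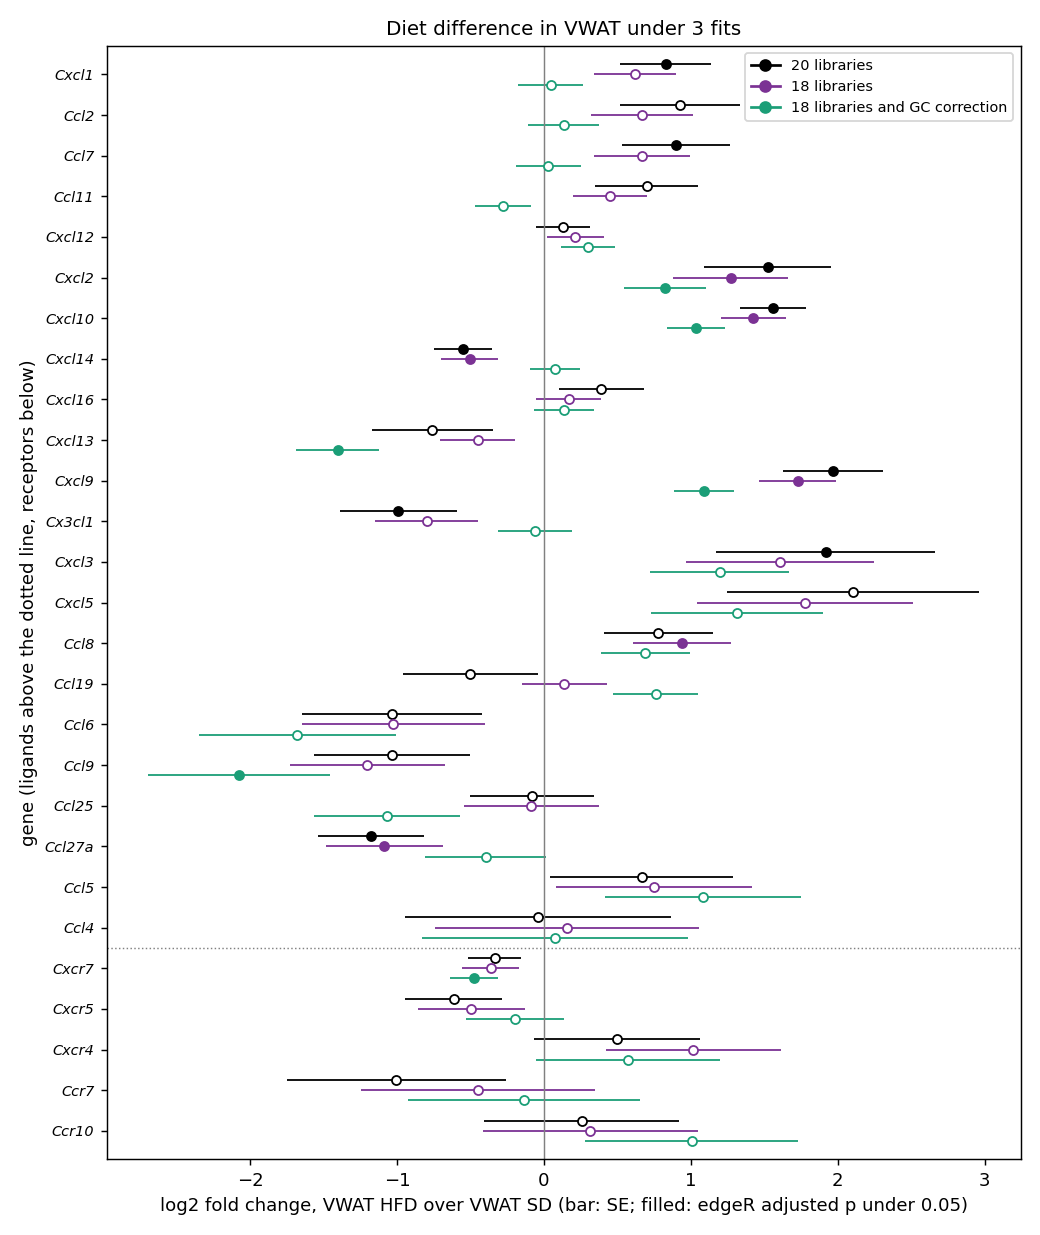
Log2 fold change of VWAT HFD over VWAT SD (x axis, bars show SE, filled points passed the threshold of 0.05) for 27 tested genes under 3 fits; Cxcl15 and Cxcl17, with no reads in 4 of 5 VWAT SD libraries, are not drawn. Cxcl9, Cxcl10 and Cxcl2 stay to the right of 0 and filled in each fit, while Cxcl1, Ccl2 and Ccl7 come to lie near 0 after the GC correction.

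Cxcl9 and Cxcl10 are induced by interferons and draw activated T cells and natural killer cells through Cxcr3. Cxcl10 had 355, 362, 328, 403 and 323 CPM in VWAT HFD, against 121, 183, 125, 99.4 and 72.3 CPM in VWAT SD. Cxcl9 had 37.1, 50.4, 34.3, 45.5 and 40.1 CPM in VWAT HFD, against 19.4, 11.8, 10.6, 8.01 and 2.89 CPM in VWAT SD. For both genes every HFD library lay above every SD library, VWAT SD 1 included. The log2 fold change of Cxcl10 was 1.56 ± 0.22 (SE, adjusted p = 0.00138 by edgeR) with 20 libraries, 1.42 ± 0.22 (SE, adjusted p = 0.00318 by edgeR) with 18, and 1.03 ± 0.20 (SE, adjusted p = 0.00572 by edgeR) with the GC correction as well. The values for Cxcl9 were 1.97 ± 0.34 (SE, adjusted p = 0.00302 by edgeR), 1.73 ± 0.26 (SE, adjusted p = 0.00300 by edgeR) and 1.09 ± 0.20 (SE, adjusted p = 0.00537 by edgeR). Both calls held when any 1 of the 20 or of the 18 libraries was left out (adjusted p of up to 0.0230). With 18 libraries and a covariate for reads that fell on no feature, Cxcl9 was still called (1.46 ± 0.28, SE, adjusted p = 0.0434 by edgeR) and Cxcl10 was not (1.33 ± 0.28, SE, adjusted p = 0.0586 by edgeR). Exons of Cxcl10 overlap the gene Art3 on the other strand, and the strand setting of the counting is not given in the sources used here. The third Cxcr3 ligand, Cxcl11, had 56 reads in 13 libraries and was not tested.

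Cxcl1, Cxcl2, Cxcl3 and Cxcl5 attract neutrophils through Cxcr2. Cxcl2 had 359, 346, 313, 553 and 541 CPM in VWAT HFD, against 352, 128, 162, 57.5 and 34.5 CPM in VWAT SD. VWAT SD 1 lay within the HFD range, and the other SD libraries lay below it. The log2 fold change was 1.52 ± 0.43 (SE, adjusted p = 0.00972 by edgeR) with 20 libraries, 1.27 ± 0.39 (SE, adjusted p = 0.0181 by edgeR) with 18, and 0.82 ± 0.28 (SE, adjusted p = 0.0453 by edgeR) with the GC correction as well. With 18 libraries the call ended when VWAT SD 2, 3 or 4 was left out (adjusted p of up to 0.0792). A covariate for reads that fell on no feature also ended the call of Cxcl2. It was then at 1.43 ± 0.48 (SE, adjusted p = 0.0515 by edgeR) with 20 libraries and 1.06 ± 0.42 (SE, adjusted p = 0.196 by edgeR) with 18. Cxcl1 had 2324, 2573, 2378, 3623 and 3206 CPM in VWAT HFD, against 2663, 1706, 2185, 797 and 597 CPM in VWAT SD. Its groups overlapped at VWAT SD 1, and it passed with 20 libraries (0.83 ± 0.31, SE, adjusted p = 0.0363 by edgeR) but not with 18 (0.62 ± 0.28, SE, adjusted p = 0.0821 by edgeR) or with the GC correction as well (0.05 ± 0.22, SE, adjusted p = 0.907 by edgeR). Leaving out VWAT SD 2, 4 or 5 or VWAT HFD 4 or 5 also ended the call of Cxcl1 (adjusted p of up to 0.0962). Cxcl3 had 33.8, 23.5, 14.3, 37.0 and 44.8 CPM in VWAT HFD, against 28.9, 3.26, 6.16, 1.03 and 0.424 CPM in VWAT SD. The SD library of number 1 again stood with the HFD libraries. Cxcl3 passed with 20 libraries (1.92 ± 0.75, SE, adjusted p = 0.0421 by edgeR) but not with 18 (1.60 ± 0.64, SE, adjusted p = 0.0537 by edgeR) or with the GC correction as well (1.19 ± 0.47, SE, adjusted p = 0.0840 by edgeR). With 20 libraries, leaving out VWAT SD 2 to 5, VWAT HFD 1, 2, 4 or 5 or SWAT HFD 1, 3, 4 or 5, each in turn, ended the call of Cxcl3 (adjusted p of up to 0.102). Cxcl5 had 25.7, 12.0, 8.24, 19.0 and 24.6 CPM in VWAT HFD, against 15.3, 0.733, 3.62, 0.342 and 0.116 CPM in VWAT SD, and was not called by edgeR with 20 libraries (2.10 ± 0.86, SE, adjusted p = 0.0509 by edgeR), with 18 (1.78 ± 0.73, SE, adjusted p = 0.0614 by edgeR) or with the GC correction as well (1.31 ± 0.58, SE, adjusted p = 0.122 by edgeR). DESeq2 called Cxcl5 with 20 libraries (adjusted p = 0.0409), and so did edgeR with the replicate block (2.83 ± 0.92, SE, adjusted p = 0.0205 by edgeR). Without VWAT SD 1, the other 19 libraries put the log2 fold change of Cxcl3 at 3.61 and that of Cxcl5 at 4.04, and both were called.

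Promoter sequence is shown for Cxcl1, Cxcl2, Cxcl3 and Cxcl10, the ligands called higher on HFD in VWAT whose window held the consensus site of NF-kB, the transcription factor of inflammatory signalling. The windows are the 250 bases before the annotated start, from RefSeq on build GRCm38.p6, 5′ to 3′ on the strand of the gene. Capitals mark matches to the NF-kB consensus on either strand and, at the left end of Cxcl10, a match to the core of the interferon-stimulated response element, GAAA, any 2 bases and GAAA.
Cxcl1 (chr5:90890995-90891244, plus strand): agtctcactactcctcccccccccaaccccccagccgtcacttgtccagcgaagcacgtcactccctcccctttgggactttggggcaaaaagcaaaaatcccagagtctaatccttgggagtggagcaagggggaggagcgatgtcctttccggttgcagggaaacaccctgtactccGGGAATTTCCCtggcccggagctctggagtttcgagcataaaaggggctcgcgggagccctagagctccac
Cxcl2 (chr5:90903649-90903898, plus strand): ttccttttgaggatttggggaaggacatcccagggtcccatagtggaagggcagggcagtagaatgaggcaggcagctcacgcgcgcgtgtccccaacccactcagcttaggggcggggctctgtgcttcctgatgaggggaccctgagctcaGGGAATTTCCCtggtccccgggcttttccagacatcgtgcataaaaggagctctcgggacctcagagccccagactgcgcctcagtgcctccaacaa
Cxcl3 (chr5:90785851-90786100, plus strand): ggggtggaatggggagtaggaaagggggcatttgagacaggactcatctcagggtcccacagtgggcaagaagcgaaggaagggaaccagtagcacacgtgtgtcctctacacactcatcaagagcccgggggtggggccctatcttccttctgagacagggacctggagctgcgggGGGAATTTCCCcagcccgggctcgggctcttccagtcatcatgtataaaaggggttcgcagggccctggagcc
Cxcl10 (chr5:92348890-92349139, minus strand): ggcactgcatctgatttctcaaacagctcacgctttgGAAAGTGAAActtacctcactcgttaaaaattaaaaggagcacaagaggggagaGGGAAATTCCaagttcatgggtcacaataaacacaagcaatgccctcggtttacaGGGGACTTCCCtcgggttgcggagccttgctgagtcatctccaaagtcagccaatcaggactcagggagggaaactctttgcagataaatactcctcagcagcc
The same 11 bases, GGGAATTTCCC, stood in capitals in all 3 windows of the Cxcr2 ligands, from base 71 to 61 before the start in Cxcl1, 97 to 87 in Cxcl2 and 73 to 63 in Cxcl3. Cxcl10 held 2 NF-kB matches that do not overlap each other, at bases 159 to 150 and 104 to 94, besides the interferon core at 213 to 204. Windows of 300 bases (250 before the start and 50 after it) were found for 39 of the 55 genes, some with more than 1. Of their 46 windows, 11 (23.9%) held the NF-kB consensus and 3 (6.52%) the interferon core, against 8.46% and 3.44% of all 32851 windows. Ligands called lower on HFD in VWAT were among them: Ccl27a held an NF-kB match, which lies after the start, and Cxcl14 the interferon core at bases 172 to 163. Neither motif was found in the window of Cxcl9. A match to letters is not a measured binding site.

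Ccl2 and Ccl7 attract monocytes through Ccr2, and Ccl11 (eotaxin) attracts eosinophils through Ccr3. Ccl2 had 1143, 936, 957, 1514 and 1418 CPM in VWAT HFD, against 1407, 579, 748, 270.0 and 141 CPM in VWAT SD. VWAT SD 1 was within the HFD range and the other SD libraries were below it. The difference did not pass with 20 libraries (0.92 ± 0.41, SE, adjusted p = 0.0672 by edgeR, against 0.0472 by DESeq2) or with 18 (0.67 ± 0.35, SE, adjusted p = 0.127 by edgeR), and it was 0.14 ± 0.24 (SE, adjusted p = 0.737 by edgeR) with the GC correction as well. Ccl7 had 521, 469, 494, 738 and 721 CPM in VWAT HFD, against 682, 292, 377, 132 and 95.4 CPM in VWAT SD. It passed with 20 libraries (0.90 ± 0.37, SE, adjusted p = 0.0493 by edgeR), and the call ended without any 1 library other than VWAT HFD 2, VWAT SD 1 or numbers 3 and 4 of SWAT SD (adjusted p of up to 0.123). With 18 libraries Ccl7 was at 0.67 ± 0.33 (SE, adjusted p = 0.109 by edgeR), and with the GC correction as well at 0.03 ± 0.22 (SE, adjusted p = 0.944 by edgeR). Ccl11 was not called with 20 libraries (0.70 ± 0.35, SE, adjusted p = 0.105 by edgeR) or with 18 (0.45 ± 0.25, SE, adjusted p = 0.153 by edgeR), and the GC correction turned its sign, to -0.06 with 20 libraries and -0.28 with 18, not called either. Ccl8, which acts on Ccr8 in the mouse, had 7.35, 8.06, 7.51, 6.30 and 6.50 CPM in VWAT HFD and 6.01, 4.07, 3.85, 0.753 and 5.90 CPM in VWAT SD, and the groups did not overlap. It was called with 18 libraries (0.94 ± 0.33, SE, adjusted p = 0.0343 by edgeR) and not with 20 (0.78 ± 0.37, SE, adjusted p = 0.0872 by edgeR), and the 18-library call ended without VWAT SD 2, 3 or 4 or any 1 VWAT HFD library (adjusted p of up to 0.0784).

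Some of the inflammatory ligands shared a ranking of the VWAT SD libraries, while Cxcl9, Cxcl10 and Ccl8 had other orders. The shared order is described because more of the tested genes had it than any other order in this group. In Cxcl1, Cxcl2, Cxcl3, Cxcl5, Ccl2, Ccl7 and Ccl11, 7 of the 29 tested genes, the library of number 1 was highest, followed by 3, 2, 4 and 5, an order that 2.82% of all tested genes had. Without VWAT SD 1, 14 of the genes were called in the 18-library comparison, 10 higher (Ccl2, Ccl7, Ccl8, Ccl11, Cxcl1, Cxcl2, Cxcl3, Cxcl5, Cxcl9 and Cxcl10) and 4 lower, against 30.3% and 27.1% of all genes. Tested in this fit were the 29 genes and Ccl3. The count of higher ones is thus near the background of this fit, and that of lower ones is below it. Ccl2 was then at a log2 fold change of 1.24 (adjusted p = 0.00301 by edgeR) and Cxcl1 at 0.92 (adjusted p = 0.00980 by edgeR). Without VWAT SD 2, 3 or 4 in turn, 2 were called each time. The share of all genes called in those fits is not given, so this lower count is not read as particular to the chemokine genes. Of 18 tested leukocyte markers, 0 were higher on HFD in VWAT and 2 were lower, the complement genes C1qa and C1qb, against 19.7% and 26% of all genes. The summed CPM of the 24 leukocyte genes in the table ranged from 17.5 to 48.1 in VWAT HFD and from 15.3 to 80.7 in VWAT SD, with 3 to 6 and 2 to 6 of them at 0 in a library. Ptprc, which encodes CD45, averaged 0.658 ± 0.428 CPM in VWAT HFD and 1.38 ± 0.985 CPM in VWAT SD (SD, n = 5).

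**Figure D3:**
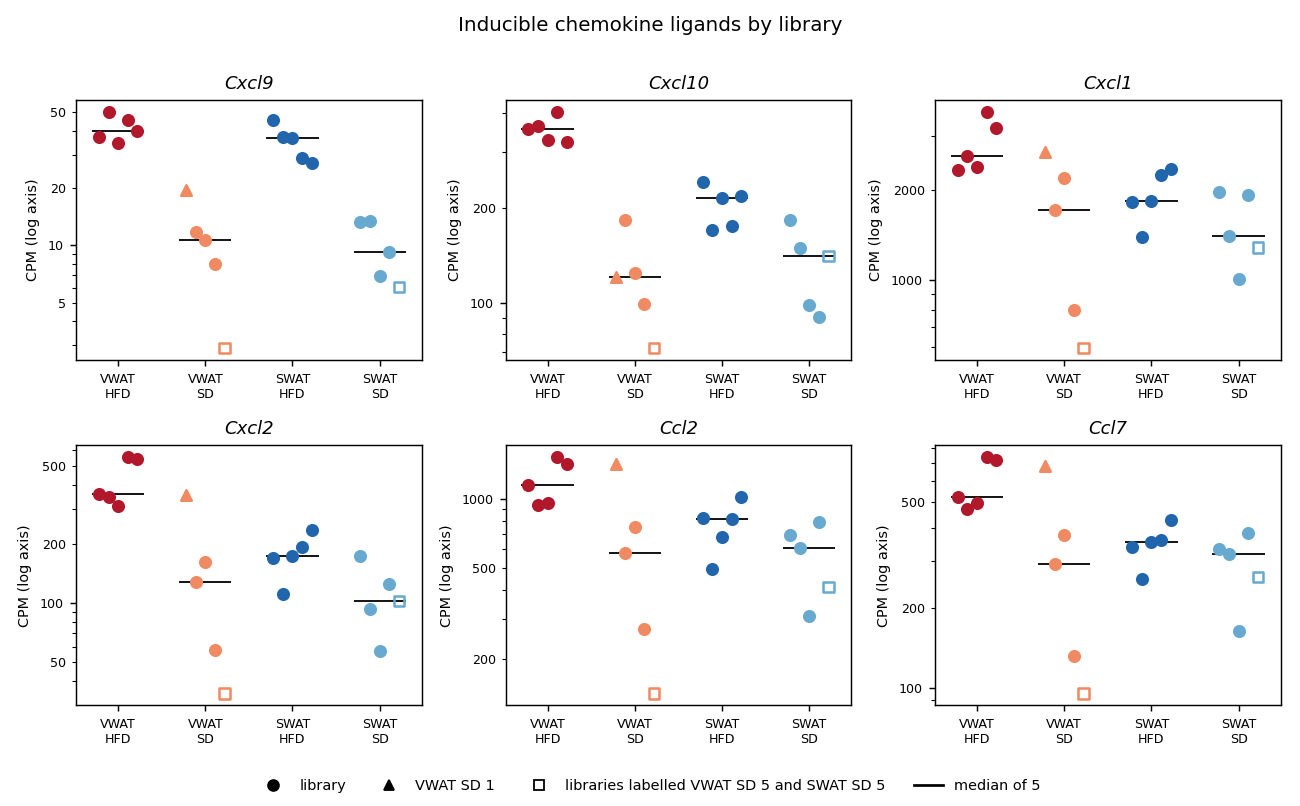
CPM of 6 inducible ligands in each library on log axes, by group, with black lines at the median of 5, a triangle for VWAT SD 1 and open squares for the library labelled VWAT SD 5 and that labelled SWAT SD 5. The triangle stands within the VWAT HFD points for Cxcl1, Cxcl2, Ccl2 and Ccl7, and below all of them for Cxcl9 and Cxcl10.

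Of the 4 ligands called lower on HFD in VWAT with 20 libraries, none was called lower after the GC correction with 18. Cxcl14, a constitutively made chemokine of stroma and epithelia, had 75.7, 111, 92.6, 85.6 and 82.5 CPM in VWAT HFD, against 95.5, 137, 118, 158 and 147 CPM in VWAT SD. VWAT SD 1 was the one SD library within the HFD range. Cxcl14 passed with 20 libraries (-0.55 ± 0.20, SE, adjusted p = 0.0309 by edgeR) and with 18 (-0.50 ± 0.19, SE, adjusted p = 0.0465 by edgeR), and the GC correction turned the value to 0.08 ± 0.17 (SE, adjusted p = 0.794 by edgeR). The 20-library call ended without VWAT SD 2, 4 or 5 or VWAT HFD 1, 3, 4 or 5 (adjusted p of up to 0.0895), and the 18-library call without any 1 of 15 libraries (adjusted p of up to 0.222). Cx3cl1, the membrane-bound ligand of Cx3cr1, averaged 8.24 ± 2.14 CPM in VWAT HFD and 16.4 ± 6.28 CPM in VWAT SD (SD, n = 5). It passed with 20 libraries (-0.99 ± 0.40, SE, adjusted p = 0.0465 by edgeR), though not without any 1 library other than VWAT SD 1 or SWAT SD 1, 3, 4 or 5 (adjusted p of up to 0.128), did not pass with 18 (-0.80 ± 0.35, SE, adjusted p = 0.0764 by edgeR), and was near 0 after the GC correction (-0.06 ± 0.25, SE, adjusted p = 0.899 by edgeR). Ccl27a, a ligand of Ccr10, had 0.446, 0.597, 0.453, 0.448 and 0.352 CPM in VWAT HFD, against 0.812, 1.55, 0.847, 0.753 and 1.27 CPM in VWAT SD, without overlap. It passed with 20 libraries (-1.18 ± 0.36, SE, adjusted p = 0.0140 by edgeR) and with 18 (-1.09 ± 0.40, SE, adjusted p = 0.0397 by edgeR), and not after the GC correction (-0.40 ± 0.41, SE, adjusted p = 0.536 by edgeR). The 20-library call ended without VWAT SD 2 (adjusted p = 0.0514 by edgeR), and the 18-library call without any 1 of 9 libraries (adjusted p of up to 0.188). Its exons overlap Il11ra1 on the other strand and it has a near-identical copy, Ccl27b, so its counts are uncertain. Cxcl12, the Cxcr4 ligand that holds progenitors in tissues, averaged 342 ± 45.2 CPM in VWAT HFD and 312 ± 44.0 CPM in VWAT SD, and did not pass (0.13 ± 0.18, SE, adjusted p = 0.566 by edgeR). After the GC correction with 18 libraries, Cxcl13 (-1.40 ± 0.28, SE, adjusted p = 0.00659 by edgeR) and Ccl9 (-2.07 ± 0.62, SE, adjusted p = 0.0279 by edgeR) were called lower in VWAT HFD, while neither passed without it with 20 or with 18 libraries. When VWAT SD 1 was also left out of the 18, Ccl9 was called lower without the correction (-1.43, adjusted p = 0.0259 by edgeR).

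Other ligands stayed low. Ccl6, Ccl9, Ccl25, Ccl4 and Ccl5 passed the filter, and none was called between diets or depots with 20 or with 18 libraries without the GC correction. Ccl5, which attracts T cells, averaged 1.12 ± 0.565 CPM in VWAT HFD and 0.704 ± 0.396 CPM in VWAT SD, and 0.693 ± 0.115 CPM in SWAT HFD and 0.397 ± 0.306 CPM in SWAT SD (SD, n = 5). The macrophage products Ccl6 and Ccl9 averaged 0.773 ± 0.442 and 0.677 ± 0.288 CPM in VWAT HFD, against 1.59 ± 0.816 and 1.41 ± 1.06 CPM in VWAT SD. The 13 untested ligands were Ccl1, Ccl3, Ccl12, Ccl17, Ccl20, Ccl21a, Ccl21b, Ccl21c, Ccl22, Ccl24, Ccl26, Ccl27b and Cxcl11, with at most 110 reads over all libraries (Ccl3). Ccl21a, Ccl21b and Ccl21c are near-identical copies whose reads the counting could split.

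Cxcl15, known from lung epithelium of the mouse, was called lower on HFD in VWAT only through 1 library. VWAT HFD 4 and 5 had 1 read each and VWAT HFD 1 to 3 had none, and all reads of VWAT SD were in the library labelled VWAT SD 5 (3.43 CPM). The fitted log2 fold change of -5.47 ± 1.70 (SE, adjusted p = 0.0150 by edgeR) became 1.93 ± 1.68 (SE, adjusted p = 0.364 by edgeR) without that library and the library labelled SWAT SD 5. The same library held all VWAT SD reads of the mucosal chemokine Cxcl17 (2.0 CPM). Epithelial markers stood out in the same place. The summed CPM of 9 mammary and skin epithelial genes was 671 in the library labelled VWAT SD 5, against 2.99 to 10.4 in the other 4 VWAT SD libraries and 2.20 to 7.83 in VWAT HFD. Their part in the result was not tested.

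The receptor side was narrow. Cxcr7, the scavenger of Cxcl12 and Cxcl11, had 688, 644, 437, 495 and 499 CPM in VWAT HFD, against 940.5, 595, 732, 579 and 642 CPM in VWAT SD. In SWAT it had 763, 676, 513, 589.5 and 662 CPM on HFD, against 822, 629, 539, 608 and 641 CPM on SD. It held 99.0% to 99.7% of all receptor CPM in each library. No receptor was called by edgeR in any of the 5 comparisons with 20 or with 18 libraries when no block, covariate or GC correction was used. Cxcr7 was at -0.34 ± 0.18 (SE, adjusted p = 0.125 by edgeR) in VWAT, and after the GC correction with 18 libraries it was called lower on HFD there (-0.48 ± 0.16, SE, adjusted p = 0.0493 by edgeR). Without VWAT SD 1, at 940.5 CPM the highest library of its group, the value of Cxcr7 was -0.15 with the other 19 libraries and -0.13 with the other 17. These 2 fits had no GC correction, and Cxcr7 was not called without that correction whether VWAT SD 1 was in or out. The GC-corrected fit was not repeated without VWAT SD 1. The other 17 receptors stayed at or below 2.38 CPM in every library, and 13 of them were not tested. Receptors of the most abundant ligands were close to 0: Cxcr2, which answers to Cxcl1 and Cxcl2, had no read, Ccr2, which answers to Ccl2 and Ccl7, had 47 reads in 12 libraries, and Cxcr3, which answers to Cxcl9 and Cxcl10, had 8 reads in 3. Ccr3, the receptor of Ccl11, had 30 reads in 6 libraries. Cxcr4, the receptor of Cxcl12, averaged 0.792 ± 0.171 CPM in VWAT HFD and 0.547 ± 0.428 CPM in VWAT SD, and 0.511 ± 0.264 CPM in SWAT HFD and 1.13 ± 0.640 CPM in SWAT SD (SD, n = 5). Cxcr5, the receptor of Cxcl13, had 0.900, 0.729, 0.761, 1.07 and 0.835 CPM in SWAT HFD, against 1.52, 1.50, 1.58, 2.38 and 1.99 CPM in SWAT SD. Its SWAT groups did not overlap, and the difference did not pass in the main fit (-1.06 ± 0.33, SE, adjusted p = 0.0692 by edgeR). DESeq2 called it (adjusted p = 0.0216), and so did edgeR with the replicate block (-1.04 ± 0.34, SE, adjusted p = 0.0477 by edgeR). Ccr7 averaged 0.150 ± 0.112 CPM in VWAT HFD and 0.301 ± 0.277 CPM in VWAT SD, and Ccr10 0.417 ± 0.326 and 0.348 ± 0.144 CPM in the same groups. Exons of Cxcr5 overlap Bcl9l on the other strand.

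Other atypical receptors were also present. Ccbp2 (Ackr2), which removes inflammatory CC chemokines, averaged 16.9 ± 4.65 CPM in VWAT HFD and 35.3 ± 17.6 CPM in VWAT SD, and was called lower (-1.07 ± 0.27, SE, adjusted p = 0.00621 by edgeR, and -1.03 ± 0.29, SE, adjusted p = 0.0131 by edgeR with 18 libraries). After the GC correction with 18 libraries Ccbp2 was not called lower. Darc (Ackr1) averaged 29.1 ± 5.95 CPM in VWAT HFD and 39.5 ± 5.69 CPM in VWAT SD and did not pass (-0.44 ± 0.18, SE, adjusted p = 0.0536 by edgeR). Ccrl1 (Ackr4), which removes Ccl19, Ccl21 and Ccl25, averaged 6.72 ± 1.69 CPM in VWAT HFD and 2.57 ± 1.10 CPM in SWAT HFD. Of 26 tested genes of the chemokine system outside the symbol rule, which also hold heparan sulfate carriers, proteases and signalling proteins of these receptors, 4 were higher and 10 lower on HFD in VWAT and 0 in SWAT. Of all genes 19.7% were higher and 26% lower in VWAT, so the count of higher ones is not above the background. Higher were the syndecan Sdc4 (0.75 ± 0.15, SE, adjusted p = 0.00311 by edgeR), the G protein regulator Rgs2, the receptor kinase Grk5 and the G protein subunit Gnai3. Among the lower ones were the arrestins Arrb2 (-1.29 ± 0.31, SE, adjusted p = 0.00474 by edgeR) and Arrb1, which switch off and internalise receptors, the kinase Adrbk1 and the chemoattractant Rarres2 (chemerin, -1.12 ± 0.27, SE, adjusted p = 0.00476 by edgeR). The median log2 fold change of the 26 was -0.41, against -0.03 over all tested genes, and after the GC correction with 18 libraries 4 were higher and 3 lower (Rarres2, Arrb2 and Arrb1), with a median of -0.14, against 6.13% and 10.3% of all genes.

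Genes that induce or regulate chemokine transcription went in both directions in VWAT. Of 42 tested, 10 were higher and 10 lower with 20 libraries, and 9 and 11 with 18, with a median log2 fold change of 0.04 with 20 libraries. Of all genes 19.7% were higher and 26% lower with 20 libraries and 13.8% and 22.7% with 18, so the counts are near the background. After the GC correction with 18 libraries 6 were higher (Lif, Il1r1, Stat3, Cebpb, Ifngr2 and Ifnar1) and 1 lower (Irf3), against 6.13% and 10.3% of all genes. Il1r1, the receptor of interleukin-1, averaged 244 ± 41.7 CPM in VWAT HFD and 90.5 ± 40.9 CPM in VWAT SD, and rose (1.43 ± 0.27, SE, adjusted p = 0.00311 by edgeR). Il6 rose (1.53 ± 0.43, SE, adjusted p = 0.00920 by edgeR), as did the cytokine Lif (1.34 ± 0.26, SE, adjusted p = 0.00311 by edgeR) and the endotoxin receptor Tlr4 (1.26 ± 0.36, SE, adjusted p = 0.0101 by edgeR). Irf3, a transcription factor of the antiviral response, fell (-1.27 ± 0.25, SE, adjusted p = 0.00311 by edgeR), as did Irf1 (-1.10 ± 0.34, SE, adjusted p = 0.0147 by edgeR), which interferon-gamma induces, the NF-kB inhibitor Nfkbia (-0.49 ± 0.14, SE, adjusted p = 0.0101 by edgeR) and the adaptor Ticam1 (-1.05 ± 0.30, SE, adjusted p = 0.0110 by edgeR). Each gene given a value in this list was called in the same direction with 18 libraries. After the GC correction as well, Il1r1, Lif and Irf3 kept their calls, and Il6, Tlr4, Irf1, Nfkbia and Ticam1 lost theirs. Of the interferon response factors, Irf1, Irf3, Irf7 and Irf9 were lower with 20 libraries in the comparison in which Cxcl9 and Cxcl10 were higher, and Irf3 alone remained lower after the GC correction.

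In subcutaneous precursors, 1 of the 29 tested genes, Cxcl9, was called between the diets with 20 and with 18 libraries. After the GC correction with 18 libraries Cxcl13 was called as well, lower on HFD (-1.28 ± 0.27, SE, adjusted p = 0.0253 by edgeR, against -0.64 ± 0.25 (SE, adjusted p = 0.106 by edgeR) without the correction). Cxcl9 had 45.5, 37.0, 36.8, 28.6 and 27.1 CPM in SWAT HFD, against 13.3, 13.4, 6.88, 9.21 and 6.06 CPM in SWAT SD. The groups did not overlap, and the log2 fold change was 1.84 ± 0.34 (SE, adjusted p = 0.0334 by edgeR) with 20 libraries, 1.71 ± 0.26 (SE, adjusted p = 0.0313 by edgeR) with 18 and 1.19 ± 0.20 (SE, adjusted p = 0.00884 by edgeR) with the GC correction as well. Of all tested genes 0.857% were higher on HFD in SWAT with 20 libraries and 0.355% with 18. The call was lost when any 1 of 11 of the 20 libraries was left out (number 1, 2, 3 or 5 of SWAT HFD, 2 to 5 of SWAT SD, or 2, 4 or 5 of VWAT HFD), with a log2 fold change of at least 1.71 and an adjusted p of up to 0.125. Cxcl10 had 241, 171, 216, 175 and 218 CPM in SWAT HFD, against 184, 149, 99.1, 90.3 and 141 CPM in SWAT SD. It did not pass by edgeR with 20 libraries (0.62 ± 0.22, SE, adjusted p = 0.0822 by edgeR) or with 18 (0.64 ± 0.22, SE, adjusted p = 0.0834 by edgeR), while DESeq2 called it (adjusted p = 0.0395), and so did edgeR with the replicate block (0.65 ± 0.21, SE, adjusted p = 0.0467 by edgeR). After the GC correction with 18 libraries it was at 0.38 ± 0.19 (SE, adjusted p = 0.270 by edgeR). Ccl2 (0.44 ± 0.41, SE, adjusted p = 0.425 by edgeR), Cxcl1 (0.35 ± 0.31, SE, adjusted p = 0.417 by edgeR) and Cxcl2 (0.68 ± 0.42, SE, adjusted p = 0.243 by edgeR) did not pass with 20 libraries, and their SWAT groups overlapped. With 18 libraries the values were 0.35, 0.29 and 0.65, and with the GC correction as well -0.14 for Ccl2 and -0.19 for Cxcl1, which changed sign, and 0.23 for Cxcl2, none of them called. The summed CPM of leukocyte markers ranged from 21.8 to 41.8 in SWAT HFD and from 19.2 to 112 in SWAT SD, and 0 of 18 passed.

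Whether diet acted differently in the depots was tested as the diet by depot interaction. No chemokine or receptor gene passed by edgeR, nor did any of the 14242 genes (0%), and DESeq2 called none either. At an unadjusted p under 0.05 edgeR had 4 of the 29 genes and 605 of all genes. The 4 were Cxcl10, Cxcl14, Cxcl15 and Ccr7. With 18 libraries no chemokine or receptor gene passed either. Cxcl10, Cxcr4 and Ccl8 were then at an unadjusted p under 0.05, and the share of all genes under that limit with 18 libraries is not given. Cxcl14 and Ccr7 were then above that limit, and the interaction of Cxcl15 turned from -4.79 with 20 libraries to 2.94. For Cxcl10 the VWAT fold change exceeded that in SWAT by 0.94 ± 0.31 (SE, adjusted p = 0.942 by edgeR) on the log2 scale with 20 libraries and by 0.78 ± 0.30 (SE, adjusted p = 0.998 by edgeR) with 18, and for Cxcl9 by 0.13 ± 0.46 (SE, adjusted p = 0.973 by edgeR) and 0.02 ± 0.36 (SE, adjusted p = 0.998 by edgeR). A larger response of these ligands in either depot was therefore not shown.

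The depots were compared on each diet. On HFD, where no label was in doubt, 3 ligands were higher in VWAT than in SWAT (Ccl11, Cxcl16 and Cxcl10) and 4 lower (Ccl19, Cxcl13, Cxcl14 and Cxcl15) with 20 libraries, against 2.82% and 3.63% of all tested genes. With 18 libraries Cxcl2, Cxcl3 and Cxcl5 were called higher as well, which makes 6 higher and 4 lower, against 4.52% and 6.23%. Of these, Cxcl2 (log2 fold change 1.26 ± 0.36 (SE, adjusted p = 0.0254 by edgeR)) and Cxcl3 (2.06 ± 0.60, SE, adjusted p = 0.0278 by edgeR) each lost the call without any 1 of 6 of the 18 libraries, all of them on HFD (adjusted p of up to 0.0752), and Cxcl5 (2.65 ± 0.70, SE, adjusted p = 0.0154 by edgeR) was called without each of the 18. The HFD libraries were the same in both fits, which differ in the spread estimated from the SD groups. On SD no gene passed with 20 libraries by edgeR (0% of all tested genes), and DESeq2 called 9 genes, none of them among the 29. With 18 libraries 2 ligands were higher in VWAT SD (Ccl11 and Cxcl16) and 5 lower (Ccl19, Cxcl13, Cxcl15, Cxcl17 and Ccl8), against 3.46% and 4.99% of all genes.

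Ccl11 had 456, 720.1, 583, 885 and 643 CPM in VWAT HFD, against 165, 175, 239, 209 and 181 CPM in SWAT HFD, without overlap. The log2 fold change of VWAT over SWAT on HFD was 1.76 ± 0.36 (SE, adjusted p = 0.00794 by edgeR). On SD it was 1.40 ± 0.27 (SE, adjusted p = 0.00122 by edgeR) with 18 libraries, and the library labelled VWAT SD 5 and that labelled SWAT SD 5 had 99.4 and 361 CPM. Cxcl16, a membrane-bound ligand of Cxcr6, had 225, 199, 158, 169 and 179.8 CPM in VWAT HFD, against 88.8, 82.3, 63.7, 67.7 and 80.0 CPM in SWAT HFD. The HFD groups did not overlap, and VWAT was higher by 1.28 ± 0.29 (SE, adjusted p = 0.0123 by edgeR) on HFD and by 1.15 ± 0.23 (SE, adjusted p = 0.00212 by edgeR) on SD with 18 libraries. Exons of Cxcl16 overlap Zmynd15 on the other strand. Both were also called after the GC correction with 18 libraries, at 1.60 and 1.29 on HFD. Cxcl10 was higher in VWAT HFD than in SWAT HFD (0.79 ± 0.22, SE, adjusted p = 0.0320 by edgeR), a call that ended when VWAT HFD 1, 2 or 4 or SWAT HFD 2, 4 or 5 was left out (adjusted p of up to 0.0837). On SD the depots were at 0.01 ± 0.23 (SE, adjusted p = 0.987 by edgeR) with 18 libraries.

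Cxcl13 and Ccl19, ligands known for placing lymphocytes, were lower in visceral than in subcutaneous precursors on HFD. Cxcl13, which places B cells through Cxcr5, had 9.18, 6.87, 12.6, 12.7 and 12.1 CPM in VWAT HFD, against 27.3, 45.2, 44.5, 44.1 and 47.4 CPM in SWAT HFD. The log2 fold change of VWAT over SWAT was -1.96 ± 0.42 (SE, adjusted p = 0.00983 by edgeR) on HFD and -2.15 ± 0.28 (SE, adjusted p = 2.07e-05 by edgeR) on SD with 18 libraries. Ccl19, which guides T cells and dendritic cells through Ccr7, had 1.11, 1.63, 2.49, 1.65 and 1.41 CPM in VWAT HFD, against 5.50, 6.23, 6.44, 6.16 and 7.99 CPM in SWAT HFD. The log2 fold change was -1.97 ± 0.46 (SE, adjusted p = 0.0138 by edgeR) on HFD and -2.55 ± 0.31 (SE, adjusted p = 7.76e-06 by edgeR) on SD with 18 libraries. Neither gene's depots overlapped on HFD, nor on SD among the 18 libraries. Cxcl14 was lower in VWAT HFD than in SWAT HFD (-0.86 ± 0.20, SE, adjusted p = 0.0138 by edgeR) and did not pass on SD (-0.40 ± 0.20, SE, adjusted p = 0.314 by edgeR). Ccl8 was lower in VWAT SD than in SWAT SD with 18 libraries (-1.13 ± 0.35, SE, adjusted p = 0.0476 by edgeR), a call that ended without any 1 of 17 of them (adjusted p of up to 0.140), and did not pass on HFD (-0.16 ± 0.30, SE, adjusted p = 0.831 by edgeR).

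Cxcl15 and Cxcl17 had few or no reads in visceral precursors. Cxcl15 had 2 reads in the 5 VWAT HFD libraries together, against 179 in SWAT HFD, so SWAT was 89.4-fold higher per CPM (exact 95% counting interval 24.4 to 744). The 20-library call on HFD (-6.18 ± 1.69, SE, adjusted p = 0.0307 by edgeR) ended without any 1 of 8 libraries (adjusted p of up to 0.0847). The 18-library call held without each of the 18. In the 4 VWAT SD libraries other than the one labelled VWAT SD 5 Cxcl15 had 0 reads, against 213 in 4 SWAT SD libraries. This puts VWAT at least 57.1-fold lower when 3 reads over the group are taken as the limit. Cxcl17 had 10 reads in VWAT HFD, against 66 in SWAT HFD (6.59-fold higher in SWAT, interval 3.37 to 14.4). Of those 10 reads, 9 were in VWAT HFD 4 and 1 in VWAT HFD 1. Without VWAT HFD 4 the ratio was 51.4 (interval 8.92 to 2062). Between the depots on HFD, Cxcl17 did not pass with 20 libraries (-3.09 ± 1.49, SE, adjusted p = 0.249 by edgeR). It did not pass with 18 either (-3.07 ± 1.07, SE, adjusted p = 0.0793 by edgeR). Cxcl17 had 0 reads in the same 4 VWAT SD libraries, against 100 in SWAT SD (at least 26.8-fold lower in VWAT). The intervals cover counting error only. All 9 epithelial markers were lower in VWAT with 18 libraries on each diet (2 on HFD with 20, Cldn3 and Krt8), among them the cytokeratins Krt8 (-5.62 ± 0.60, SE, adjusted p = 1.25e-06 by edgeR) and Krt18 on HFD. Their summed CPM was 2.20 to 7.83 in VWAT HFD and 54.1 to 341 in SWAT HFD, and the inguinal depot of females holds mammary epithelium. Mesothelial markers were mixed on HFD, with 5 of 8 called higher in VWAT with 20 libraries (Upk3b, Msln, Gpm6a, Upk1b and Lrrn4) and Krt19 lower. The summed CPM of the 10 mesothelial genes in the table was lower in VWAT HFD (46.5 to 72.3) than in SWAT HFD (86.8 to 185), without overlap. Of 15 endothelial and 10 mural markers tested, 0 and 1 (Myh11) were higher and 1 (Kdr) and 0 lower in VWAT HFD than in SWAT HFD with 20 libraries. The part of these cells in the depot differences of the ligands was not tested.

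**Figure D4:**
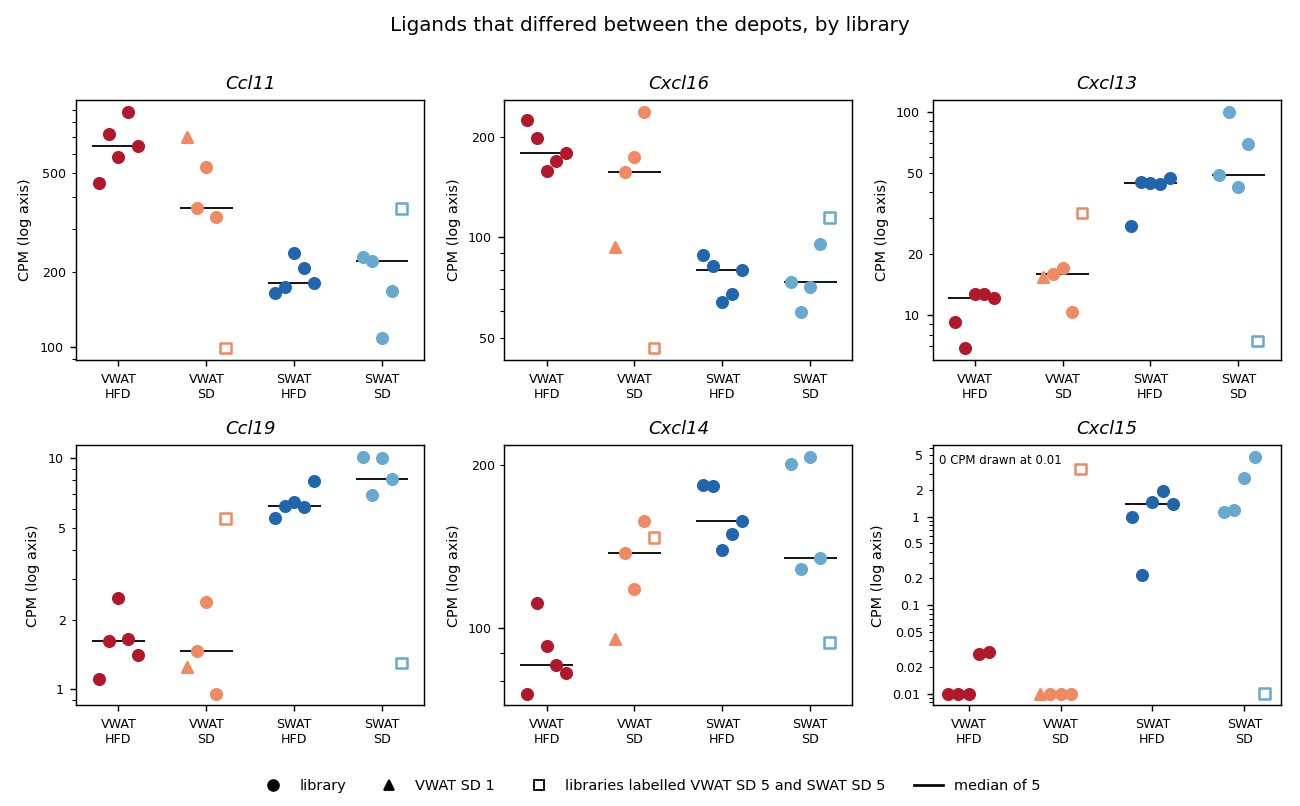
CPM of 6 ligands that differed between the depots, in each library on log axes, by group, with black lines at the median of 5 (none where a library is at 0). Ccl11 and Cxcl16 are higher and Cxcl13, Ccl19, Cxcl14 and Cxcl15 lower in VWAT HFD than in SWAT HFD, and both open squares lie outside the range of the other 4 libraries of their label for Ccl11, Cxcl16, Cxcl13, Ccl19 and Cxcl15.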

How the data were processed

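RNA-seq was done on sorted adipocyte precursor cells of 4 groups with 5 libraries each. Per the labels' protocols, polyA RNA was made into strand-specific dUTP libraries. Per the submitters' processing notes, TopHat, HTSeq and build mm9 were used, without versions, and the strand setting of the counting is not given in the sources used here. The authors deposited raw counts per gene in 1 table. Of its 33929 rows, 5 HTSeq summary rows (21.8% to 37.0% of reads) and 25 rows with date-like names (at most 0.132%) were left out, which gave 33899 genes and 14367067 to 47483171 reads per library.

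Counts were fitted with edgeR 4.0.16 (R 4.3.3): filterByExpr by group, TMM scaling, 1 mean per group, robust quasi-likelihood tests, and Benjamini-Hochberg adjustment over the 14242 tested genes at a threshold of 0.05. SE is the log2 fold change divided by the root of F. The 18-library fits leave out replicate 5 of VWAT SD and of SWAT SD. The GC correction subtracted each library's spline trend (5 degrees of freedom) as an offset. DESeq2 1.42.0 was an alternative. The scripts were tested on simulated data. Lengths came from the exon union of each gene in GENCODE vM21 and GC content from its longest transcript there. Promoters came from RefSeq on GRCm38.p6, so no coordinate was carried over from mm9. Promoters were matched by symbol.

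Named genes are those called in any comparison with 20 or 18 libraries, the 5 ligands and 5 receptors of highest mean CPM, and up to 4 examples per other list by smallest p. Others are named for completeness. The members and lists were chosen with earlier results of these data known. Libraries of a group differed by more than sampling noise (chi-square per degree of freedom of 19.2 to 420 over 40 pairs). The labels do not say that equal replicate numbers mark shared animals, and deviations of same-numbered libraries did not correlate in every pair, so the fit has no replicate block. At these depths 3 reads in a library correspond to 0.0626 to 0.244 CPM.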

Additional observations from a re-analysis of the deposited data

Results flagged for a closer look

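In 9 of 96 sets of 5 libraries checked, 1 library stood apart from the other 4. For independent, normally distributed values chance gives this in about 1 of 20 sets. CPM values need not be so distributed, and some sets had 4 libraries at 0, so the 9 are not read against that rate. VWAT SD 1 was above its group for Cxcl3, at 28.9 CPM against 0.424 to 6.16 CPM in the other 4, and for Cxcl5, at 15.3 CPM against 0.116 to 3.62 CPM. The library labelled VWAT SD 5 was above its group for Cxcl15, at 3.43 CPM, and for Cxcl17, at 2.0 CPM, while the other 4 had no read of either. This library also carries subcutaneous depot markers. Cxcl17 had 0.252 CPM in VWAT HFD 4, against 0 to 0.0248 CPM in the other 4. Cxcl13 had 27.3 CPM in SWAT HFD 1, against 44.1 to 47.4 CPM in the others of its group. Cxcl5 had 0.810 CPM in SWAT HFD 2, against 2.98 to 3.75 CPM. Cxcl3 had 5.73 CPM in SWAT SD 1, against 1.02 to 2.15 CPM. The receptor Ccr10 had 0.996 CPM in VWAT HFD 3, against 0.223 to 0.336 CPM.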

How the results depend on the processing

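Of the chemokine and receptor genes, 10 were called between diets in VWAT with 20 libraries, 6 with 18, 6 with 18 and the GC correction, 3 with a covariate for unassigned reads and 1 (Cxcl9) with 18 libraries and that covariate. Over all genes those counts were 6502, 5247, 2356, 1880 and 18. In SWAT 1 was called in the main comparison, 3 by DESeq2 and 3 with the replicate block (Cxcl9, Cxcl10 and Cxcr5 each time), 2 with 18 libraries and the GC correction (Cxcl9 and Cxcl13), and 0 with the unassigned share, with 20 or 18 libraries. Between depots on SD 0 were called with 20 libraries (0% of all genes) and 7 with 18 (3.46% of all genes higher and 4.99% lower). The count there was 8 with 18 and the GC correction and 7 with 18 and the unassigned share. On HFD the depot count was 7 with 20 libraries (2.82% of all genes higher and 3.63% lower). It was 11 with 18 and the GC correction and 11 with 18 and the unassigned share. Leaving out 1 of 20 libraries gave 4 to 14 calls between diets in VWAT, 0 to 3 in SWAT, 0 to 0 for the interaction, 0 to 5 between depots on SD and 5 to 10 on HFD. Leaving out 1 of the 18 gave 2 to 14, 6 to 8 and 8 to 12 calls for VWAT and the depots on SD and HFD. For fits whose share of all genes is not given, it cannot be told whether a swing is particular to the chemokine genes. The direction changed for Cxcl14 in VWAT with the GC correction (log2 fold change 0.032 with 20 libraries and 0.076 with 18). It also changed for Cxcl15, to 1.93 with 18 libraries, 1.71 when GC-corrected, 2.47 with the unassigned share, and over -5.91 to 1.96 when 1 library was left out, 1.96 being the value without VWAT SD 5, which held 89 reads, against 2 in the other VWAT libraries. Other causes were not tested. The fits with the unassigned share at 18 libraries and those leaving out 1 of the 18, and the Cxcl17 ratio without VWAT HFD 4, were chosen after seeing the data.

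The replicate block gave 10 calls between diets in VWAT, Cxcl5 taking the place of Cxcl15, 3 in SWAT, 0 for the interaction, and 0 and 7 between depots on SD and HFD. The share of all genes called with the block is not given, so these counts are not read as particular to the chemokine genes. Deviations of same-numbered libraries correlated at -0.657 to 0.594, and 1 to 2 of 5 libraries correlated best with their own number. Depth limits the 26 untested genes, whose differences were not detectable here.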
